A study of Tursiops truncatus with 28 samples.

Results

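This account covers 3 loci of dolphin skin whose RNA levels stood apart in June and September of 2017, out of the 24091 in an expression table made from 28 skin libraries. They were chosen from their measured difference between those 2 sessions, so that difference is given below as a description with no test. In the table they are listed as NW_017844429.1:71627464-71631309, NW_017843160.1:54976543-54993714 and NW_017844429.1:5573058-5602852, with starts counted from 0. With the first base counted as 1 and on the NIST Tur_tru v1 assembly, they span bases 71627465 to 71631309 of scaffold NW_017844429.1, bases 54976544 to 54993714 of scaffold NW_017843160.1, and bases 5573059 to 5602852 of NW_017844429.1 again. Below they are called by their spans, introns included, as the 3845-base, the 17171-base and the 29794-base locus.

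The table covers stored skin samples of 28 common bottlenose dolphins, Tursiops truncatus, that took part in health assessments in Barataria Bay, Louisiana, with 1 library per animal. Sessions were read from the sampling dates. The July 2016 session had 9 females, the June 2017 session 8 females and 3 males, and the September 2017 session 5 females and 3 males. The labels give sex, place and date, and no treatment, age or genotype. A session therefore stands for a season, a set of animals and the handling of their samples together, and these cannot be told apart. July 2016 differs from the other sessions in year and month and has no male.

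Cetacean skin is hairless and carries a thick epidermis that is renewed and shed continuously, over a dermis that grades into blubber. A skin sample therefore mixes keratinocytes with pigment cells, fibroblasts, vessels and immune cells, and RNA from the whole piece is measured at once. In such bulk samples fewer cells of a type and less RNA per cell cannot be told apart. No locus of the table received a gene name from the gene table at hand (0 of 24091 identifiers matched), so the function of the 3 loci is not given, and the labelled tissue could not be checked against marker genes. No genome sequence of this assembly was used here, and the loci are shown by position only.

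Values are FPKM, fragments scaled to transcript length and to the mapped fragments of the library, which correct for length and for library size. The number of reads per library is unknown. Depth relative to the other libraries, read from the lowest values, was 0.807 to 1.37 in July 2016, 0.762 to 1.21 in June 2017 and 0.892 to 1.48 in September 2017. The ranges overlap, and the mean was higher in September (1.11 ± 0.187, SD, n = 8) than in June (0.924 ± 0.142, SD, n = 11). Tests ran over the 13192 loci whose mean across the 28 libraries reached 1 FPKM. The 3 loci are among them and above 0 in 28 of 28 libraries. The 17171-base locus, with a mean of 38.1 FPKM, lay at the 80.3 percentile of the level of tested loci. The 3845-base locus, with 3.55 FPKM, and the 29794-base locus, with 2.79 FPKM, lay at the 22 and 17.4 percentiles. None of the 3 overlaps another locus of the table.

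The 3845-base locus was low in June 2017 and high in September 2017. The 8 June females held 0.484 to 4.59 FPKM with a median of 1.27, and the 3 June males held 1.15, 1.77 and 1.86. The 5 September females held 5.09, 4.68, 3.10, 7.92 and 12.6 FPKM, and the 3 September males 4.72, 4.07 and 5.90. Of the 11 June libraries 10 lay below every September library, and the exception was June 2017 female 5, at 4.59 FPKM. The means were 1.64 ± 1.09 FPKM in June (SD, n = 11) and 6.02 ± 3.03 in September (SD, n = 8), a ratio of 3.66. On the scale of log2(FPKM + 1), with session and sex as terms of a linear model, the difference was 1.41 (SE 0.247). The median over all tested loci was 0.04, and 15 of the 13192 tested loci had a larger rise.

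The 17171-base locus was the most abundant of the 3 and also higher in September. The 8 June females held 19.5 to 36.8 FPKM with a median of 26.2, and the 3 June males held 21.1, 37.6 and 24.2. The September females held 37.1, 41.1, 43.1, 54.2 and 54.0 FPKM, and the September males 61.5, 71.9 and 54.6. Overlap was limited to a pair of libraries: the highest June library, at 37.6, stood just above the lowest September library, at 37.1. The means were 27.5 ± 6.22 FPKM in June (SD, n = 11) and 52.2 ± 11.5 in September (SD, n = 8), a ratio of 1.90. The log2 difference was 0.88 (SE 0.154), and 75 tested loci had a larger rise.

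The 29794-base locus went the other way. The 8 June females held 2.08 to 8.16 FPKM with a median of 4.78, and the 3 June males held 2.96, 3.21 and 4.9. The September females held 0.964, 0.594, 1.24, 2.09 and 0.746 FPKM, and the September males 0.650, 2.90 and 0.496. September 2017 male 2, at 2.90 FPKM, and September 2017 female 4, at 2.09, reached the lower end of the June range, and the other 6 September libraries lay below all of June. The means were 4.77 ± 2.22 FPKM in June (SD, n = 11) and 1.21 ± 0.855 in September (SD, n = 8), so the June mean was 3.95-fold that of September. The log2 difference was -1.36 (SE 0.253), and 11 tested loci had a larger fall. With relative depth as a covariate the log2 differences at the 3845-base, 17171-base and 29794-base locus were 1.48 (SE 0.278), 0.86 (SE 0.174) and -1.35 (SE 0.287).

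**Figure D1:**
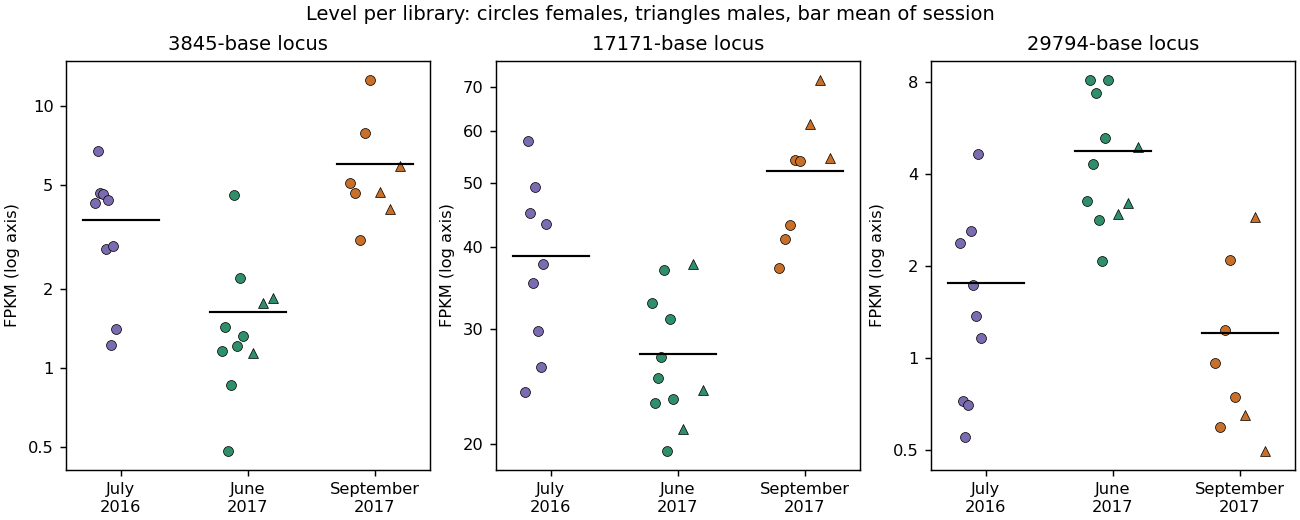
Level of each of the 3 loci in every library, in FPKM on a log axis, with a bar at the mean of the session. The September libraries of the 3845-base and 17171-base loci sit above nearly all June libraries and those of the 29794-base locus below most of them, while the July 2016 libraries spread over both ranges.

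The 3 loci were picked for their September minus June difference, so their place among the calls of that comparison followed from the choice and nothing is read from it. As background, that comparison called 5 of the 13192 tested loci, or 0.0379%, at an adjusted p under 0.05 (limma, Benjamini-Hochberg over all tested loci), and 12% had an unadjusted p under 0.05. The 2 called loci that are not among the 3 were a 267325-base locus at bases 16899390 to 17166714 of NW_017844625.1, with 70.6 ± 11.5 FPKM in June (SD, n = 11) and 96.7 ± 9.36 in September (SD, n = 8), and a 7460-base locus at bases 55626071 to 55633530 of NW_017844429.1, with 54.7 ± 15.4 and 101.0 ± 25.4 FPKM. Both of these had their highest mean in July 2016, at 111.9 ± 10.7 and 182.7 ± 35.6 FPKM (SD, n = 9). The 3 loci had their highest and lowest means in 2017, which a choice on the difference between the 2017 sessions favours. Just past the threshold, each at an adjusted p of 0.0542 (limma), stood a 9364-base locus at bases 2860838 to 2870201 of NW_017844299.1, with 18.1 ± 2.66 FPKM in June and 11.8 ± 2.201 in September, and a 2800-base locus at bases 5652610 to 5655409 of NW_017843107.1, with 7.09 ± 4.46 and 16.4 ± 4.32 FPKM. The count of called loci was 0 in females only and 0 with relative depth as a covariate, and it moved from 0 to 26 as single libraries were left out. It was 0 without female 2 or female 8 of June 2017, and likewise without female 4, female 5 or male 1 of September 2017. It was above 7 without July 2016 female 2 (14), 4 (11) or 6 (16), June 2017 female 6 (26) or 7 (13), June 2017 male 2 (21), or September 2017 female 1 (11), 2 (23) or 3 (8).

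July 2016 was not part of the difference that the loci were chosen on. Its libraries do enter the spread per locus used for the calls of that difference. A part of July in the choice is therefore not excluded. At the 3845-base locus the 9 July females held 1.23 to 6.77 FPKM with a median of 4.27 and a mean of 3.68 ± 1.76 (SD). At the 17171-base locus they held 24.0 to 58.0 FPKM with a median of 37.7 and a mean of 38.7 ± 11.3. At the 29794-base locus they held 0.552 to 4.65 FPKM with a median of 1.38 and a mean of 1.76 ± 1.30. The July mean lay between those of June and September at each of the 3 loci. A choice on a large difference between June and September favours such a place, so nothing is read from it.

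In relation to the 2017 ranges, single July animals fell on either side. At the 3845-base locus 3 July libraries were within the September range only, 4 within the June range only and 2 within both. The top of that June range, 4.59 FPKM, was set by June 2017 female 5, and every other June library lay below the September range. Without that library the 2 within both would lie in the September range only. July 2016 females 5 and 8, at 2.86 and 2.93 FPKM, would lie in neither range. At the 17171-base locus 5 were within the September range only and 4 within the June range only. At the 29794-base locus 6 July libraries were within the September range only, 2 within both and 1, July 2016 female 8, within the June range only. The choice of the loci favours ranges that lie apart, so nothing is read from these counts. The SD of log2(FPKM + 1) at the 3845-base locus was 0.60 in July, 0.49 in June and 0.54 in September. At the 17171-base locus it was 0.42, 0.31 and 0.31, and at the 29794-base locus 0.61, 0.55 and 0.49.

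July was also compared with a mean of the 2017 sessions, 61.5% June and 38.5% September. The estimate of this comparison is uncorrelated in the model with the September minus June difference. The spread per locus is shared by both. The 3845-base locus was 0.24 higher in July on the log2 scale (SE 0.229, adjusted p = 0.604, limma) and the 17171-base locus 0.17 higher (SE 0.143, adjusted p = 0.533), and neither was called. The 29794-base locus had a log2 difference of -0.61 (SE 0.235, unadjusted p = 0.0149, adjusted p = 0.124, limma) and was not called. In this comparison 6.41% of tested loci were called and 20.5% had an unadjusted p under 0.05, so 0 called of 3 is near the background. The result for the 29794-base locus depended on July 2016 female 8: without that library the log2 difference was -0.75 and it was called (adjusted p = 0.0434, limma). Differences of July from June and from September separately share libraries with the choice of the loci and are given as values: 0.78 and -0.62 at the 3845-base locus, 0.51 and -0.37 at the 17171-base locus, and -1.13 and 0.23 at the 29794-base locus.

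**Figure D2:**
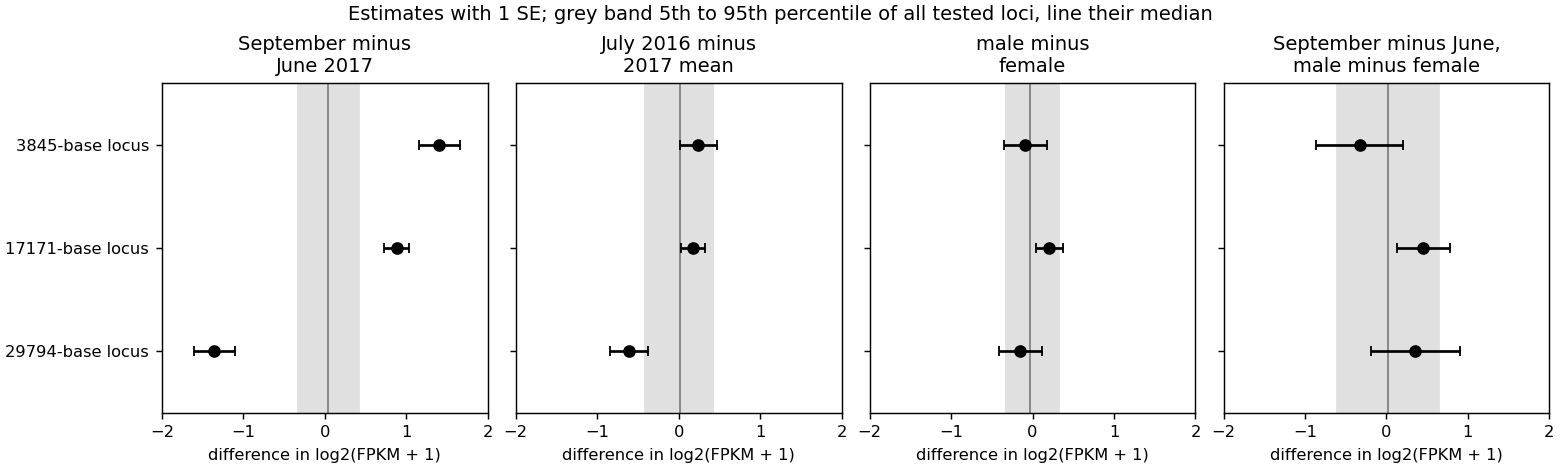
Estimated differences in log2(FPKM + 1) for the 3 loci (points, with 1 SE) in 4 comparisons, over the band that holds the 5th to 95th percentile of all 13192 tested loci. All 3 loci lie outside the band in the comparison that chose them, the 29794-base locus lies below it in July 2016 against the 2017 mean, at -0.61, and the other points lie inside it.

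Samples were taken on 6 dates in July 2016, from day 11 to day 19, and on 6 dates in June 2017, from day 14 to day 23. In September 2017 there were 3 dates, from day 19 to day 21. In July the 3845-base locus was higher on July 11 than on July 18 and 19. The 3 animals of July 11 held 6.77, 4.65 and 4.64 FPKM. Those of July 12, 13 and 15 held 2.86, 4.27 and 4.38 FPKM. Those of July 18 held 1.23 and 2.93 FPKM and that of July 19 held 1.41. All 3 libraries of July 11 lay inside the September range only, and all 3 of July 18 and 19 inside the June range only. The July 18 library at 2.93 FPKM was inside the June range only because June 2017 female 5 extends that range. The mitochondrial share of summed FPKM was 1.27% to 3.10% on July 11, 4.85% on July 12 and 1.89% on July 13. It was 2.21% on July 15 and 3.56% to 4.36% on July 18 and 19. The July libraries with a share of 3.10% or less held 4.27 FPKM or more at the 3845-base locus. Those with 3.56% or more, that of July 12 among them, held 2.93 FPKM or less. This split was seen in the values and was not tested within July.

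At the 29794-base locus July 11 also stood apart, in the opposite direction. Its 3 animals held 0.722, 0.552 and 0.700 FPKM, the lowest 3 values of the session. July 12, 13 and 15 gave 2.61, 2.38 and 1.73 FPKM, July 18 gave 1.38 and 4.65, and July 19 gave 1.2. At the 17171-base locus the July 11 animals held 58.0, 45.1 and 35.2 FPKM and July 12 gave 49.3, then July 13 and 15 gave 24.0 and 29.7, July 18 gave 26.2 and 37.7, and July 19 gave 43.3. No order by day is visible there.

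**Figure D3:**
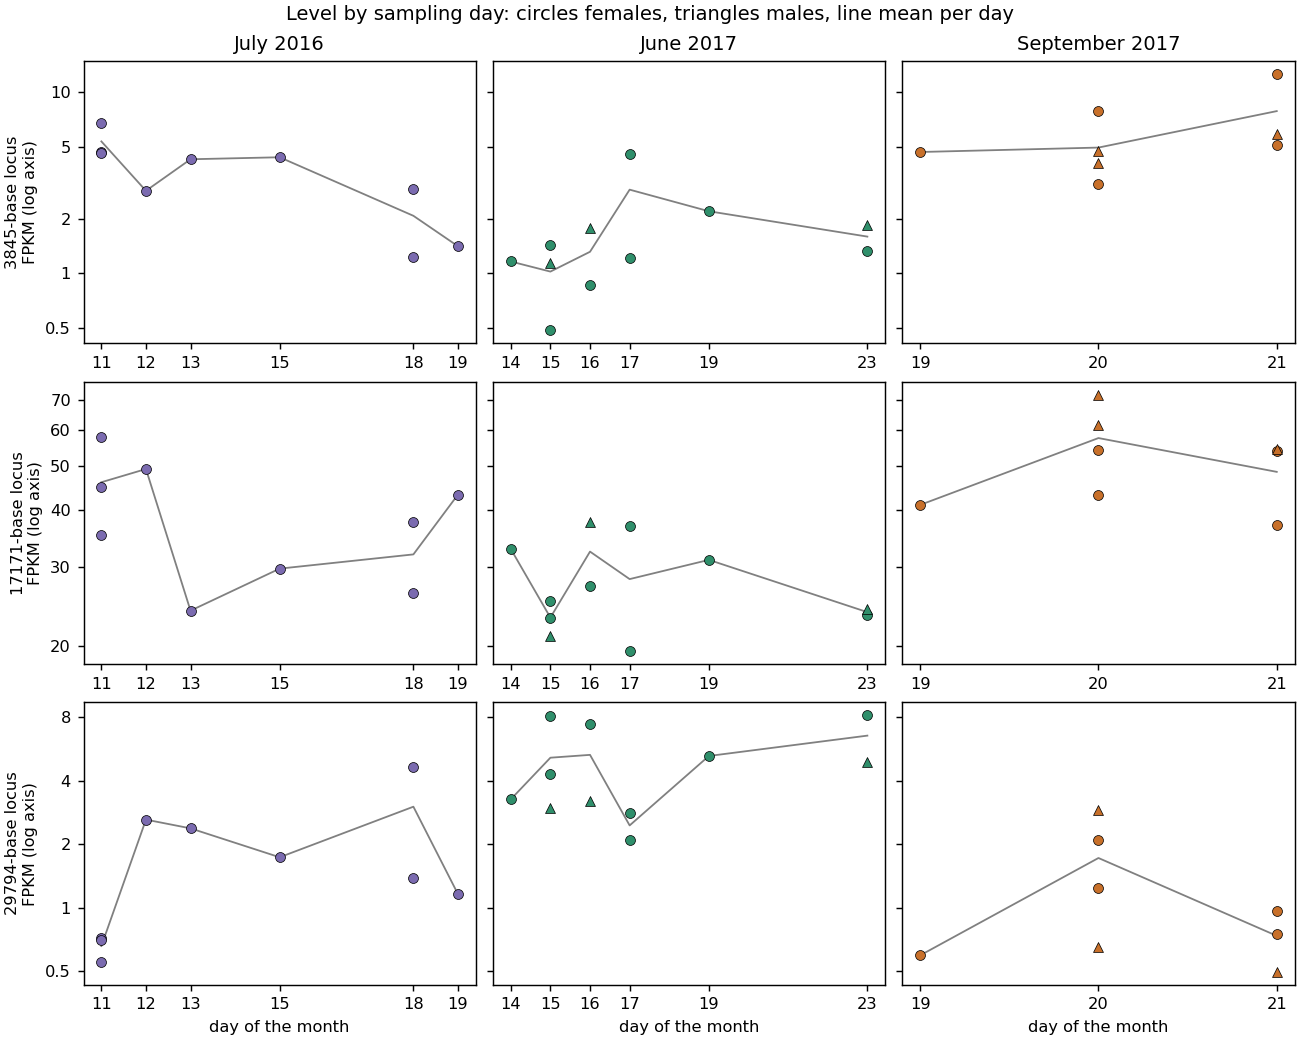
Level of the 3 loci in each library against the day of the month, in FPKM on a log axis, with 1 column per session and a line through the mean of each day. In July 2016 the 3845-base locus is at 4.64 FPKM or more on day 11, at 2.86 on day 12 and at 2.93 or less on days 18 and 19. The 29794-base locus is lowest on day 11. The July slopes per day of these loci were not called.

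In June 2017 no order by day is visible at the 3845-base and 17171-base loci. At the 3845-base locus the mean was 1.02 ± 0.489 FPKM on June 15 (SD, n = 3) and the animals of June 23 held 1.33 and 1.86 FPKM, with 4.59 and 1.21 on June 17. At the 17171-base locus June 15 gave 23.2 ± 2.08 FPKM (SD, n = 3) and June 23 gave 23.5 and 24.2. At the 29794-base locus June 17 held the lowest 2 values of the session, 2.83 and 2.08 FPKM, while June 23 gave 8.16 and 4.9. September ran from day 19 to day 21, and the 29794-base locus held 0.735 ± 0.234 FPKM on September 21 (SD, n = 3) and 1.72 ± 0.985 on September 20 (SD, n = 4).

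None of these courses passed the test across all loci. With 1 slope for all sessions, log2 levels changed per day by -0.039 (SE 0.0383, adjusted p = 0.772, limma) at the 3845-base locus, by -0.031 (SE 0.0236, adjusted p = 0.705) at the 17171-base locus and by 0.069 (SE 0.0378, adjusted p = 0.616) at the 29794-base locus. Of the tested loci 0% were called for this slope, and 8.86% had an unadjusted p under 0.05. With a slope for each session, that of the 3845-base locus in July was -0.15 per day (SE 0.0484, unadjusted p = 0.0057, adjusted p = 0.583, limma), and 1.02% of tested loci had a more negative slope. With the mitochondrial level as a covariate this slope was -0.13. No locus was called for the July slope, 0%, and 7.75% had an unadjusted p under 0.05. The July slopes of the 17171-base and 29794-base loci were -0.042 (SE 0.0356, adjusted p = 0.762) and 0.081 (SE 0.0566, adjusted p = 0.709).

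No slope of the other sessions passed the test either. In June 2017 they were 0.046 (SE 0.0465, adjusted p = 0.835, limma), -0.022 (SE 0.0342, adjusted p = 0.900) and 0.064 (SE 0.0544, adjusted p = 0.791) at the 3845-base, 17171-base and 29794-base locus. In September they were 0.36 (SE 0.245, adjusted p = 0.846, limma), -0.0071 (SE 0.18, adjusted p = 1) and -0.11 (SE 0.287, adjusted p = 0.966). No locus was called in either session, 0% in each, and 8.55% of loci in June and 6.22% in September had an unadjusted p under 0.05. At the 3845-base locus the July slope was lower than the June slope by an estimate of -0.19 per day (SE 0.0671, unadjusted p = 0.00832, adjusted p = 0.708, limma), and 0% of loci were called for that difference, with 6.32% at an unadjusted p under 0.05. At the other 2 loci it was -0.02 (adjusted p = 0.971) and 0.017 (adjusted p = 0.986).

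The sexes were compared over the 2017 sessions, in which both were sampled. Log2 differences, male minus female, were -0.089 (SE 0.262), 0.20 (SE 0.164) and -0.15 (SE 0.269) at the 3845-base, 17171-base and 29794-base locus, each with an adjusted p of 1 (limma), where 0.091% of tested loci were called and 4.85% had an unadjusted p under 0.05. At the 17171-base locus the 3 September males, at 54.6 to 71.9 FPKM, lay above the 5 September females, at 37.1 to 54.2, whereas in June the males, at 21.1 to 37.6, and the females, at 19.5 to 36.8, overlapped throughout. The rise from June to September was thus from 27.6 ± 8.79 to 62.7 ± 8.73 FPKM in males (SD, n = 3 each) and from 27.4 ± 5.75 (SD, n = 8) to 45.9 ± 7.78 (SD, n = 5) in females. Tested as a difference of the change between the sexes, this was 0.45 on the log2 scale (SE 0.323, unadjusted p = 0.172, adjusted p = 1, limma) and was not called.

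At the 3845-base locus the change in males minus that in females was -0.33 (SE 0.532, adjusted p = 1, limma), with means of 1.59 ± 0.389 and 4.90 ± 0.928 FPKM in June and September males and 1.66 ± 1.28 and 6.69 ± 3.76 FPKM in females. At the 29794-base locus it was 0.35 (SE 0.545, adjusted p = 1), with 3.69 ± 1.07 and 1.35 ± 1.35 FPKM in males and 5.18 ± 2.45 and 1.13 ± 0.589 in females. No locus was called for this difference, 0% of those tested, and 3.69% had an unadjusted p under 0.05. The 3 males per session give this comparison wide errors. The male libraries were also deeper in September than in June, with relative depths that did not overlap, at 0.777 to 0.979 in June and 1.05 to 1.18 in September, and their mitochondrial shares ran from 1.61% to 2.39% in June and from 2.58% to 4.63% in September. With relative depth or the mitochondrial level as a covariate the difference of changes at the 17171-base locus was 0.45 or 0.46. Among the males neither measure overlapped between the sessions, so its part and that of session cannot be told apart there.

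Whether the 3 loci moved together was read within groups, after taking out the mean of each session and sex, since the group means carry the difference that chose them. Deviations at the 3845-base and 17171-base loci had a positive correlation that missed the threshold, with Pearson's r = 0.402 (n = 28, permutation p = 0.0506) and Spearman's rho = 0.33 (permutation p = 0.111). Adjusted over the 3 pairs, these p-values were 0.152 and 0.332 (two-sided, 100000 permutations within groups). Without the 2 libraries farthest from the median at the 3845-base locus r was 0.282, so part of the relation rests on them. Within July, June and September r was 0.277, 0.531 and 0.519. The adjusted p of r fell under the threshold without July 2016 female 1 (r = 0.489, permutation p adjusted = 0.0499) and without July 2016 female 9 (r = 0.481, permutation p adjusted = 0.0454).

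Neither relation of the 29794-base locus with the other 2 passed the test. Against the 3845-base locus r was -0.218 (n = 28, permutation p = 0.3, adjusted 0.45) and rho -0.239 (permutation p = 0.248, adjusted 0.372), with r = -0.105 without the 2 farthest libraries. The sign was the same in each session, with r of -0.265, -0.207 and -0.158 in July, June and September. Against the 17171-base locus r was -0.0855 (permutation p = 0.691, adjusted 0.691) and rho -0.154 (permutation p = 0.453, adjusted 0.453), with 0.0617 without the 2 farthest. Here the sessions differed in sign, with r of -0.277, -0.152 and 0.596.

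**Figure D4:**
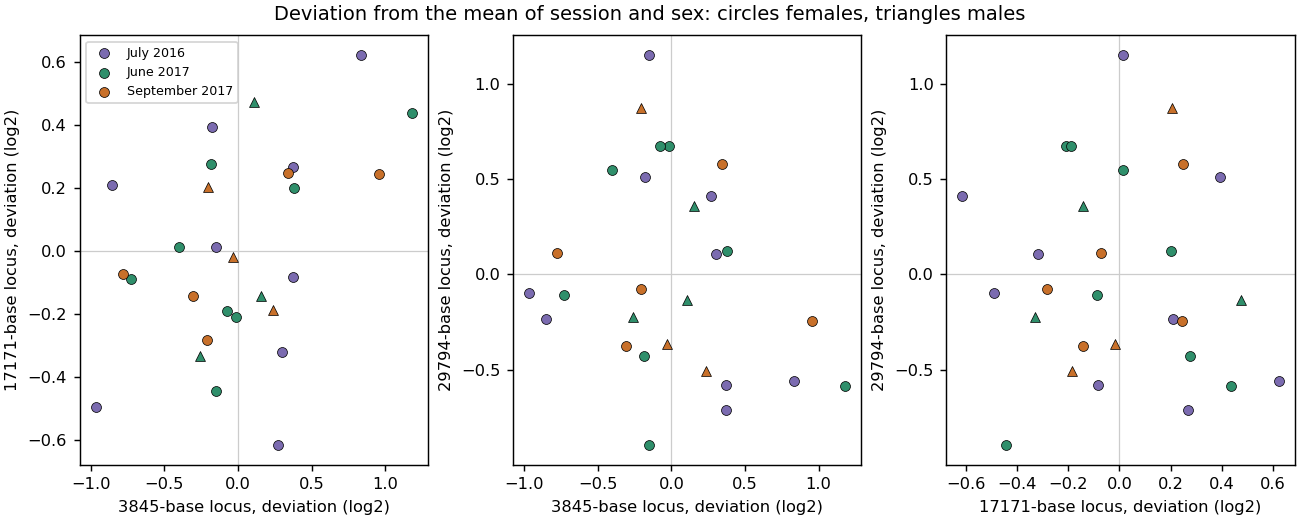
Deviation of each library from the mean of its session and sex at 2 loci at a time, in log2 units (circles females, triangles males). The pair of the 3845-base and 17171-base loci runs upward (r = 0.402), and the pairs with the 29794-base locus have no clear course (r = -0.218 and -0.0855).

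Relations of the 3 loci to the general state of the libraries were also examined. Correlations of their within-group deviations with the mitochondrial RNA level, the relative depth and the share of the 10 most abundant loci were computed, 9 in all. They ran from -0.328 (3845-base locus with the mitochondrial level, n = 28, permutation p = 0.137, rho = -0.245 with permutation p = 0.257, r = -0.233 without the 2 farthest libraries) to 0.101 (3845-base locus with the share of the 10 most abundant loci, permutation p = 0.586, rho = 0.0411 with permutation p = 0.842, r = 0.126 without the 2 farthest). Every adjusted p of the 9 was 0.912 for r and 0.999 for rho, so none passed. The spread within groups, as an SD of log2(FPKM + 1), was 0.56 at the 3845-base, 0.34 at the 17171-base and 0.57 at the 29794-base locus, at the 86.3, 58.7 and 86.9 percentiles of tested loci.

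The tested loci next to the 3 are given as a description, since the 3 were chosen for a large difference. None of these 6 was called between September and June, where 0.0379% of tested loci were, so this count is near the background. On NW_017844429.1, which carries 805 loci, the 3845-base and the 29794-base locus lie 66024612 bases apart. Those nearest to the 3845-base locus lie 102947 bases before it, with 11.2 ± 2.35 FPKM in June (SD, n = 11) and 10.5 ± 1.52 in September (SD, n = 8), and 21294 bases after it, with 13.9 ± 2.51 and 15.3 ± 2.09 FPKM. Their log2 differences between September and June were -0.07 (SE 0.114, adjusted p = 0.839, limma) and 0.16 (SE 0.0918, adjusted p = 0.498). Next to the 17171-base locus a gap of 2953999 bases holds no tested locus before it, and the nearest ones had log2 differences of -0.15 (SE 0.145, adjusted p = 0.706) and -0.0054 (SE 0.161, adjusted p = 0.995). Those next to the 29794-base locus, 45316 bases before and 33358 bases after it, had -0.064 (SE 0.0911, adjusted p = 0.815) and 0.30 (SE 0.251, adjusted p = 0.664). Within sessions the 6 neighbours had partial correlations with their locus from -0.178 to 0.191 over 28 libraries, with session and sex taken out.

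Loci that go with each of the 3 were sought by adding the level of the locus to the model, beside additive terms for session and sex, and testing its slope at 13191 other loci. The 17171-base locus had 5 such loci, 0.0379% of those tested, 4 with a positive and 1 with a negative slope, and 0 when each group of session and sex had its own mean. The 3845-base and the 29794-base locus had 0, 0% of those tested in each case. At an unadjusted p under 0.05 there were 6.12% of loci for the 3845-base locus, 4.26% for the 17171-base locus and 3.69% for the 29794-base locus. Partial correlations below were used to pick the loci that are named, so they measure likeness and carry no test of their own. All points come from the same 28 libraries, with their depth and composition, and the slopes are differences in log2(FPKM + 1) per log2 unit of the locus.

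The locus most like the 17171-base locus was a 226730-base locus at bases 642494 to 869223 of NW_017842971.1, with a partial correlation of 0.794 over 28 libraries and 0.77 without the 2 farthest. It held 7.11 ± 1.52 FPKM in July, 5.44 ± 1.82 in June and 8.63 ± 2.08 in September (SD, n = 9, 11 and 8), and its slope was 0.85 (SE 0.143, adjusted p = 0.0169, limma). Next came a 6990-base locus at bases 27853424 to 27860413 of NW_017844429.1, with a partial correlation of 0.782, levels of 69.7 ± 18.7, 71.3 ± 17.0 and 105.2 ± 25.7 FPKM and a slope of 0.88 (SE 0.144, adjusted p = 0.0169). A 32434-base locus at bases 93174146 to 93206579 of NW_017842794.1 had a partial correlation of 0.747 and held 8.04 ± 2.40, 5.52 ± 1.65 and 11.1 ± 4.26 FPKM (slope 0.94, SE 0.175, adjusted p = 0.0359). A 78692-base locus at bases 3961172 to 4039863 of NW_017843947.1 had a partial correlation of 0.733 and held 11.9 ± 3.33, 10.1 ± 3.299 and 17.0 ± 4.78 FPKM (slope 0.86, SE 0.165, adjusted p = 0.0452), and it overlaps another locus of the table.

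Each of these 4 loci had its highest mean in September, as did the 17171-base locus. The share of all tested loci with their highest mean in September was not computed, so nothing is read from this. The log2 differences of the 4 loci between September and June ran from 0.56 to 0.85 and none was called (adjusted p from 0.0644 to 0.179, limma). Within July, June and September their correlations with the 17171-base locus were positive in each case, from 0.633 to 0.890. They also went with each other, with partial correlations from 0.634 to 0.765. The 4 were picked for likeness to the 17171-base locus over these same libraries. Their signs within sessions and their likeness to each other follow in part from that pick and are given as a description.

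The locus that went against the 17171-base locus spans 7111 bases, from 7622562 to 7629672 of NW_017844293.1, and ran from 0.457 to 13.5 FPKM over the libraries. Its partial correlation was -0.738 and its slope -2.15 (SE 0.386, adjusted p = 0.0294, limma), with correlations of -0.905, -0.583 and -0.686 within July, June and September. It held 4.923 ± 4.02, 5.46 ± 2.69 and 3.85 ± 4.48 FPKM in the 3 sessions. The remaining 3 loci named for a negative likeness had partial correlations of -0.724, -0.616 and -0.614 and were not called (adjusted p = 0.104, 0.534 and 0.534).

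**Figure D5:**
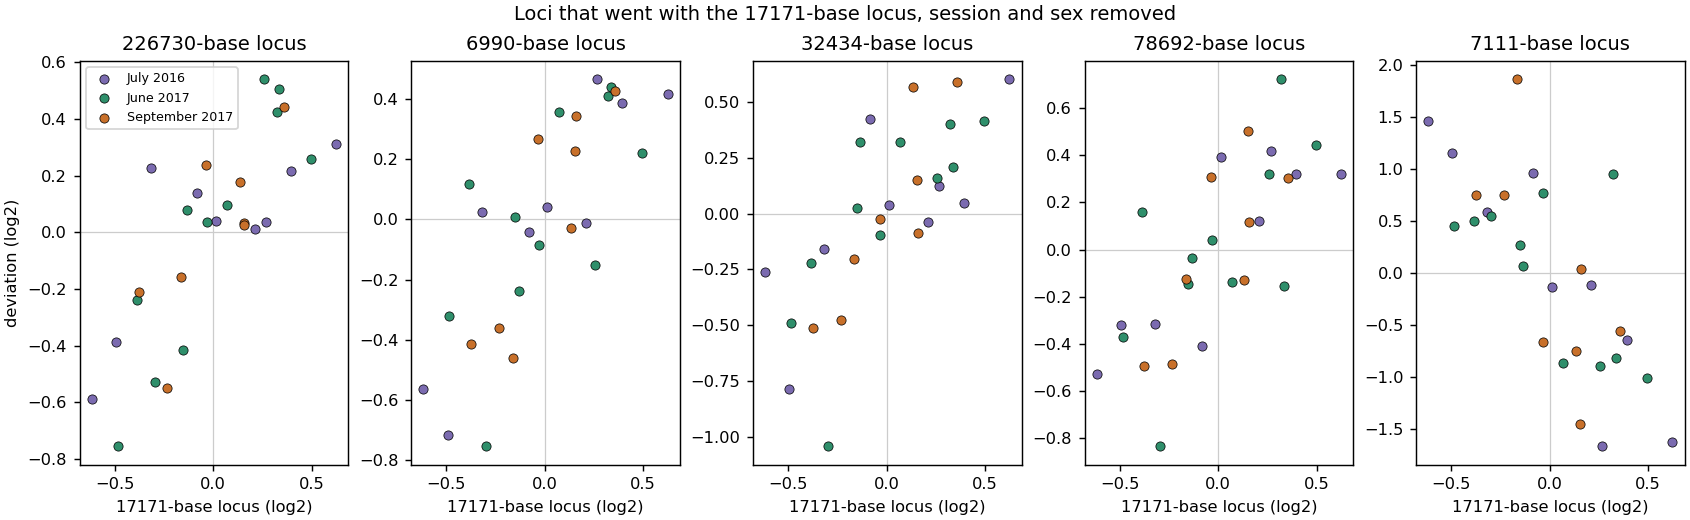
Deviations of the 5 loci called for a slope on the 17171-base locus against its own deviations, with session and sex taken out, in log2 units. The first 4 panels run upward, with partial correlations of 0.733 to 0.794, and the last, of the 7111-base locus, runs downward, at -0.738.

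These calls depend on single libraries. The count of 5 fell to 0 without July 2016 female 1, July 2016 female 7 or September 2017 male 2 and with a mean for each group of session and sex. It was 2 without June 2017 female 5, June 2017 male 1 or September 2017 female 1 or 2, and 3 without July 2016 female 2 or 3, June 2017 female 3, June 2017 male 2 or September 2017 female 3 or 5. The calls of the 226730-base and the 6990-base locus were kept in 36 and 37 of 43 alternatives, that of the 7111-base locus in 31 of 42, and those of the 32434-base and 78692-base loci in 23 of 43 and 10 of 42. Among the alternatives the omission of July 2016 female 6 also stands as that of the library of unclear year, so the same fit is counted more than once. All 5 slopes kept their direction in every alternative. The 5 were picked for slopes far from 0 in these same libraries, so the kept direction says nothing of stability.

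For the 3845-base locus 2 of the 8 loci named for likeness came close to the threshold. A 2034-base locus at bases 6005122 to 6007155 of NW_017844444.1, which ran from 1.06 to 31.8 FPKM, had a partial correlation of 0.728, rank correlation 0.803, and a slope of 1.61 (SE 0.297, adjusted p = 0.065, limma). A 26889-base locus at bases 42647869 to 42674757 of NW_017844625.1, listed at 0 in 3 libraries and overlapping another locus, had -0.73 and a slope of -1.47 (SE 0.27, adjusted p = 0.065). Without the 2 farthest libraries these partial correlations were 0.632 and -0.551, and the rank correlation of the 26889-base locus was -0.554. The sign held within July, June and September for both, with correlations of 0.660, 0.759 and 0.799 for the former and -0.587, -0.859 and -0.769 for the latter. Both loci were picked for their partial correlation over these same libraries, so the kept sign is no separate support. Their log2 differences between September and June were -0.0047 and -0.081 (adjusted p = 0.999 and 0.967, limma). The other 3 loci with the highest partial correlations had 0.639 to 0.681 and the other 3 with the lowest -0.735 to -0.659, with adjusted p from 0.52 to 0.692.

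For the 29794-base locus the likest was a 7460-base locus at bases 7604678 to 7612137 of NW_017843245.1. It had a partial correlation of 0.72 and a slope of 0.65 (SE 0.129, adjusted p = 0.36, limma), and held 3.71 ± 1.55 FPKM in July, 6.68 ± 2.74 in June and 6.67 ± 2.68 in September (SD, n = 9, 11 and 8). The other 3 at the upper end had partial correlations of 0.648 to 0.688, and the 4 at the lower end -0.664 to -0.636, with adjusted p from 0.522 to 0.999.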

How the data were processed

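RNA was purified from skin with a column kit for fatty tissue that includes DNase, and strand-keeping Illumina libraries were made, per the labels' protocols. Per the submitters' processing notes, the tools were Trimmomatic 0.33 and FastQC 0.1 for the reads, TopHat2 2.1.1 and Bowtie for alignment, and Cufflinks 2.2.1. The guide genome, NIST Tur_tru v1, comes from the series text. Settings, annotation and strand use were not given in the sources used here. Expression came as 1 deposited table with a column for each library, whose values were taken to be FPKM from the authors' Cufflinks step, since no unit is written there. All columns matched sample titles. Of 1 library, July 2016 female 6, the title and the date give different years, and the date was used. The values given for July 15 are those of this library.

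Tests used log2(FPKM + 1), which understates changes at low levels, and the 13192 loci with mean FPKM of 1 or more. The limma 3.58.1 model (R 4.3.3, trend and robust settings) had session and sex as additive terms and 24 residual degrees of freedom. Tests were two-sided, with Benjamini-Hochberg adjustment over all tested loci and calls under 0.05. The scripts were tested on simulated data. The 3 loci, the tests and the loci compared were chosen with earlier results of these data known. Named loci are the 3, the others called between September and June, the next 2, the neighbours on either side, and for each of the 3 the 4 with the highest and the 4 with the lowest partial correlation. The mitochondrial level sums 12 mitochondrial loci of at least 500 bases. Relative depth came from the low values of 4754 loci. The labels name no batch. Each library is from a separate animal.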

Additional observations from a re-analysis of the deposited data

Results flagged for a closer look

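July 2016 female 8 held 4.65 FPKM at the 29794-base locus, far above the next of the 9 July females, at 2.61. The gap takes up 0.496 of the range of the group. It was the July library whose omission brought the July difference of this locus past the threshold.

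June 2017 female 5 held 4.59 FPKM at the 3845-base locus, where the next of the 8 June females held 2.203. The gap takes up 0.581 of the range. Its level at the 17171-base locus, 36.8 FPKM, was also the highest of the June females. Of 9 combinations of group and locus looked at, 2 were flagged in this way. The rule was applied to FPKM and not to log2 values. Its chance rate of about 1 in 20 holds for normally distributed values, so no excess over chance is read from the 2 flags. In log2(FPKM + 1) the 2 flagged libraries stood at 2.50 and 2.48, and the next ones of their groups at 1.85 and 1.68.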

How the results depend on the processing

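The difference between September and June chose the 3 loci, so its direction says nothing of stability, and its values over the alternatives are given as a description. On the log2 scale they ran from 1.24 to 1.89 at the 3845-base, 0.73 to 0.94 at the 17171-base and -1.97 to -1.28 at the 29794-base locus, where -1.97 came with a pseudocount of 0.1 FPKM. The number of loci called between September and June was 2 with a filter at 5 FPKM, 8 with median-of-ratios scaling, 9 with quantile normalization, 18 among loci that overlap no other, 0 in females only, 0 with relative depth as a covariate, 14 without trend and robust settings, 16 without the library of unclear year, and 0 to 26 without single libraries. For the common day slope it was 1 with the pseudocount of 0.1, the filter at 5 FPKM or loci that overlap no other, and 0 to 1 without single libraries (1 without female 4 of July, female 1 or 2 of June or male 1 of September). Loci that went with the 17171-base locus numbered 2 without a filter or with a day term, 3 under either scaling, 1 in females only, 0 with 2017 only or groups as terms, and 0 to 7 without single libraries. For the 3845-base locus there was 1 with 2017 only or a day term, for the 29794-base locus 1 in females only, and 0 to 1 for either without single libraries. The 1 appeared without females 2, 3 or 7 of July, female 8 of June or female 4 of September at the former and without female 3 of June at the latter. Loci called between the sexes numbered 6 to 15 without single libraries, 6 without June 2017 male 3.

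Small values changed sign. With 2017 only, the common day slope of the 3845-base locus was 0.056 and the relation of the 17171-base and 29794-base loci 0.078 (-0.209 to 0.0035 without single libraries). The September slope of the 17171-base locus was 0.037 in females only, 0.0083 with the mitochondrial level as a covariate and -0.21 to 0.11 without single libraries, and that of the 29794-base locus was 0.020 in females only. Without single libraries, the July difference of the 29794-base locus ran from -0.75 to -0.51, the sex difference of the 3845-base locus from -0.17 to 0.023, the difference of changes between sexes at the 29794-base locus from -0.083 to 0.61, the July minus June slope from -0.055 to 0.0023 at the 17171-base and -0.032 to 0.069 at the 29794-base locus, and the relation of the 3845-base and 17171-base loci from 0.310 to 0.489. The cause of these changes was not tested. The filter at 5 FPKM leaves out the 3845-base and 29794-base loci, and comparisons of sexes have no value in females only, and those with July none in 2017 only. No paired analysis was possible because replicate numbers follow accession order and pair no samples. Absolute depth is unknown, which limits what can be said of the 2 low loci.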
